A study of Mus musculus with 16 samples.

Results

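The genes described here are 10 brakes on inflammation, chosen as a set of early LPS-induced feedback genes. They were taken by symbol from the table of read counts, in which each of the 10 was found once among 47069 genes. They fall into the A20 group (Tnfaip3, Tnip1 and Tnip3), the deubiquitinase gene Otulin, the pseudokinase gene Irak3, the tristetraprolin (TTP) family (Zfp36, Zfp36l1 and Zfp36l2) and the Regnase family (Zc3h12a and Zc3h12c). Macrophages (BMMs) were derived from the bone marrow of C57BL/6 mice aged 8 to 10 weeks, grown in L929-conditioned media, harvested on day 7, primed overnight with 10 ng/mL IFNγ and activated for 1 hr with 100 ng/mL LPS and IgG-opsonized ovalbumin (LPS/ICs). One group received 25 μM DAPT, which inhibits γ-secretase (GSI), the protease that releases the active part of Notch receptors and also cuts other substrates. The other received the vehicle DMSO without DAPT, and DMSO at 0.01% is recorded for both groups. Per the study's methods, both treatments began the night before activation. Each group had 2 replicates, and all cells in both groups were primed and activated, so that induction by LPS itself was not measured here. The labels do not say whether the replicates came from separate mice or cultures, so the p-values measure only the spread between these samples.

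A20, the product of Tnfaip3, edits ubiquitin chains on signaling proteins and thereby limits NF-κB activation, and the ABIN proteins encoded by Tnip1 and Tnip3 bind A20 and ubiquitin. OTULIN removes linear ubiquitin chains, and IRAK-M, the product of Irak3, restrains signaling from Toll-like and IL-1 receptors. TTP and its relatives bind AU-rich elements in the 3′ untranslated regions of cytokine mRNAs and recruit the CCR4-NOT deadenylase, whereas the Regnases cut such mRNAs as endonucleases. Many of these genes are themselves NF-κB targets, which makes them negative feedback regulators.

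The RefSeq promoter windows of the A20 group are shown because those of all 3 genes share a feature. In the RefSeq promoter windows on GRCm38.p6, which run from 250 bases before to 50 bases after an annotated start, the NF-κB consensus motif was found on either strand for Tnfaip3, Tnip1 and Tnip3, and 4.51% of the 32851 windows of this length held it. The first window of Tnfaip3 lies at chr10:19015361-19015660 on the minus strand, that of Tnip1 at chr11:54962891-54963190 on the minus strand, and that of Tnip3 at chr6:65590148-65590447 on the plus strand. All 3 are printed 5′ to 3′ in the direction of the gene, with bases of a motif match in capitals.
Tnfaip3: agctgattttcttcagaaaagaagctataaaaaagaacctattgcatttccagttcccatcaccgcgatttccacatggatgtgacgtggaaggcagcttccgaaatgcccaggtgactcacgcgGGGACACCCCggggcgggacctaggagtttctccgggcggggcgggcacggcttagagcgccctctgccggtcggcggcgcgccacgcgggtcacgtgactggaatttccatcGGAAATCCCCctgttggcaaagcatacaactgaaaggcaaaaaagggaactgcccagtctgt
Tnip1: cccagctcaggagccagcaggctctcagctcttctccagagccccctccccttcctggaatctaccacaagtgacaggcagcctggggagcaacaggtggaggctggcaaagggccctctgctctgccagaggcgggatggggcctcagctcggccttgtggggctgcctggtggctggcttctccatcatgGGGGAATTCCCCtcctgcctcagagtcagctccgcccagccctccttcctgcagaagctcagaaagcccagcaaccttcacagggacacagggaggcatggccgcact
Tnip3: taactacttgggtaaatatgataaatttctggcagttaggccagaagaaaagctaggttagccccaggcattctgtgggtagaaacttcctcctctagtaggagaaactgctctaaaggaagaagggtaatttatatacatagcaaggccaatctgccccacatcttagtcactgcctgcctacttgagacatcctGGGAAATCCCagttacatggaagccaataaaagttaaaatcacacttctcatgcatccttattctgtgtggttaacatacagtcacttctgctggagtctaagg
Tnfaip3 had separate matches at -125 to -116 and at -12 to -3 relative to the start. The stretch in Tnip1 ran from -58 to -47 and held overlapping matches on both strands, and the letters at -54 to -45 in Tnip3 matched on both strands. The RefSeq start behind the printed window of Tnfaip3 lies just inside the gene as GENCODE M21 draws it (19000910 to 19015657). That of Tnip3 lies deep inside its gene (65525313 to 65634040), so the window of Tnip3 is not at the 5′ end drawn there. The second annotated start of Tnfaip3 had no match, and neither did the windows of Zfp36, Zfp36l1, Zc3h12a, Zc3h12c, Irak3 and Otulin. These letters are a description of the windows and not of binding. The 6-letter core TGGGAA of sites for RBPJ, the DNA-binding partner of Notch, was present on either strand in 25.6% of all windows. Among these genes it was present for Tnip3 at -55 to -50, where it overlaps the NF-κB match, and once each for Tnfaip3 (-197 to -192), Irak3 (-96 to -91) and Otulin (-95 to -90). The windows of Zfp36l1, Zfp36, Zc3h12a and Zc3h12c had neither motif. No window was matched for Zfp36l2.

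The 3′ untranslated regions of the TTP family are shown because TTP binds AU-rich elements. The 9-letter AU-rich element TTATTTATT, searched on the mRNA strand in the longest annotated 3′ untranslated region of each gene (GENCODE M21 on GRCm38), occurred in 8.04% of the 11597 tested genes that have such a region. It occurred once in each of the 3 TTP family genes, and the element is printed in capitals within 29 bases of each region, 5′ to 3′ on the mRNA.
Zfp36: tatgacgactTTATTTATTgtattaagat
Zfp36l1: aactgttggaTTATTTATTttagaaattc
Zfp36l2: actatttaacTTATTTATTatcttgtgaa
The sites lie in the 3′ untranslated regions at chr7:28376951-28376979, chr12:80108167-80108195 and chr17:84184914-84184942, in this order, all on the minus strand. The shorter pentamer ATTTA was most frequent per length in Zfp36l1, with 9 copies in 1835 bases, followed by Zfp36 with 3 in 774 bases. Zc3h12a had 3 copies in 856 bases and Zc3h12c had 14 in 4062 bases, both without the longer element. Tnip1 and Otulin had 0 copies in 752 and 348 bases.

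The 4 libraries held between 42694655 and 56932059 counts. The limit set by a count of 0 is 3 counts, which equalled 0.0527 to 0.0703 CPM (here a count divided by its library total, times 1000000, and for the levels of single genes below by the TMM-adjusted total) and covers counting error only. The 4 runs of a library differed in the members by a chi-square statistic per degree of freedom between 0.0721 and 2.40, with a median of 0.670, and were summed, because the labels do not define them as replicates. The macrophage markers were strongly expressed in all libraries, with a summed level of 12374 and 12443 CPM for DMSO against 9461 and 10387 CPM for GSI. Of these 8 markers all were detected, with Csf1r, Cd14, Lyz2, Adgre1, Fcgr1 and Itgam lower and Cd68 and Mertk higher in both GSI libraries. Marker lists of other cell types summed to at most 5.29 CPM in any library, and all 4 markers of mast cells and basophils and all 4 of erythroid cells were at 0. The Notch target genes Hes1 and Hey1 had at most 5 counts in any library, so these libraries gave no check of the inhibitor. The paper itself reports that cleaved Notch1 was absent with GSI by Western blot and that hes1 mRNA was significantly lower by qPCR.

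With GSI, 6 of the 10 brakes were lower, and the difference was largest for Zfp36l1. These 6 had an FDR under 0.05, which 40.8% of the 13211 genes tested had, with 21.9% of all genes called lower and 19.0% called higher. Of the 7581 genes that averaged at least 10 CPM, as all 10 brakes did, 25.4% were called lower and 22.6% higher. The FDR is the Benjamini-Hochberg adjusted p of edgeR's quasi-likelihood test over all genes tested. Of the 10 brakes, 0 were higher with an FDR under 0.05 in edgeR, 0 were higher at an unadjusted p under 0.05 and 0 were higher in DESeq2. In 8 of the 10, both GSI libraries lay below both DMSO libraries, against 34.8% of all genes tested, and in 0 both lay above, against 35.8%. The log2 fold change was negative for all 10, against 48.4% of all genes tested. The median log2 fold change of GSI against DMSO was -0.26 over the 10 genes and 0.01 over all genes tested. In bulk samples, fewer cells of a type and less RNA per cell cannot be told apart, and the part that the lower macrophage marker sum has in these values was not tested.

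**Figure D1:**
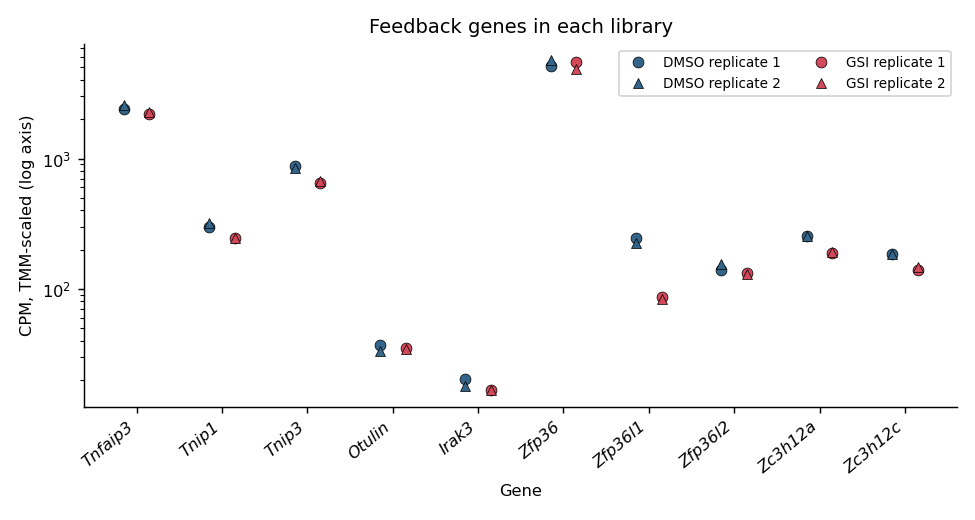
Level of the 10 feedback genes in each of the 4 libraries, as TMM-scaled CPM on a log axis, with the DMSO libraries in blue and the GSI libraries in red. The genes span from 16.6 CPM for Irak3 to 5655 CPM for Zfp36, and the widest gap between the groups is that of Zfp36l1 (244 and 224 against 87.0 and 83.4 CPM).

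The brakes differed widely in abundance. The length of a gene was taken as the merged exons of all its annotated transcripts, so the order per kb depends on the annotation. Per kilobase of annotated exons, the mean level over the 4 libraries was 1519 CPM per kb for Zfp36 and 325 CPM per kb for Tnfaip3, followed by Tnip1 (78.5), Zc3h12a (76.8), Tnip3 (69.8), Zfp36l1 (53.3), Zfp36l2 (39.4), Zc3h12c (24.0), Otulin (20.6) and Irak3 (4.86). With DMSO, Tnip1 (84.9 and 90.3 CPM per kb) and Zc3h12a (87.7 and 88.5 CPM per kb) overlapped, as did Tnip3 (80.4 and 77.5 CPM per kb) and Zfp36l1 (81.5 and 74.8 CPM per kb). With GSI, Zfp36l1 (29.1 and 27.9 CPM per kb) lay below Zfp36l2 (37.2 and 36.6 CPM per kb), whereas with DMSO it lay above it (39.6 and 44.2 CPM per kb for Zfp36l2). Zc3h12c and Otulin overlapped with GSI but not with DMSO. Without length scaling, Tnip3 (mean of 762 CPM, 10916 exon bases) lay above Tnip1 (mean of 278 CPM, 3539 exon bases), the reverse of their order per kb.

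In the A20 group, the genes of both binding proteins fell, while the decrease of the enzyme's own gene did not pass the test. Tnfaip3 (ENSMUSG00000019850) on chromosome 10 of GRCm38 (19000910 to 19015657) was measured at 2388 and 2559 CPM with DMSO against 2180 and 2272 CPM with GSI. The groups did not overlap, but the log2 fold change of -0.15 (SE 0.0752, edgeR FDR = 0.113) had a 95% interval from -0.31 to 0.00488. Tnip1 (ENSMUSG00000020400) on chromosome 11 (54910785 to 54962917) fell from 301 and 320 CPM to 244 and 247 CPM, a change of -0.34 on the log2 scale (SE 0.0700, edgeR FDR = 0.000631). Tnip3 (ENSMUSG00000044162) on chromosome 6 (65525313 to 65634040) fell from 878 and 846 CPM to 653 and 672 CPM, a change of -0.38 on the log2 scale (SE 0.0723, edgeR FDR = 0.000269). For both ABIN genes, the GSI libraries lay close together and below the DMSO libraries. The ratio of Tnip1 to Tnip3 per kb was 1.06 and 1.17 with DMSO against 1.15 and 1.13 with GSI, and the groups overlapped. Whether Tnfaip3 differed from the ABIN genes in its change was not tested.

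Otulin (ENSMUSG00000046034) on chromosome 15 (27542635 to 27630693) had 21.7 and 19.7 CPM per kb with DMSO, from 1584 and 1896 counts, against 20.7 and 20.3 CPM per kb with GSI, from 1692 and 1696 counts. The GSI libraries lay between the DMSO libraries, and the log2 fold change was -0.02 (95% interval -0.18 to 0.15, FDR = 0.885 from edgeR). Irak3 (ENSMUSG00000020227) on chromosome 10 (120141648 to 120202130), the least abundant of the 10, was measured at 20.2 and 17.9 CPM with DMSO against 16.8 and 16.6 CPM with GSI. Its counts were 867 and 1018 against 811 and 822, the log2 fold change was -0.19 (95% interval -0.37 to 4.93e-05), and it did not pass the test (FDR = 0.102 from edgeR). With the replicate number as a block, Irak3 passed (-0.19, edgeR FDR = 0.0470). Irak3 shares 220 exon bases with genes on the other strand, among them Tmbim4, which had 5775 to 8061 counts.

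**Figure D2:**
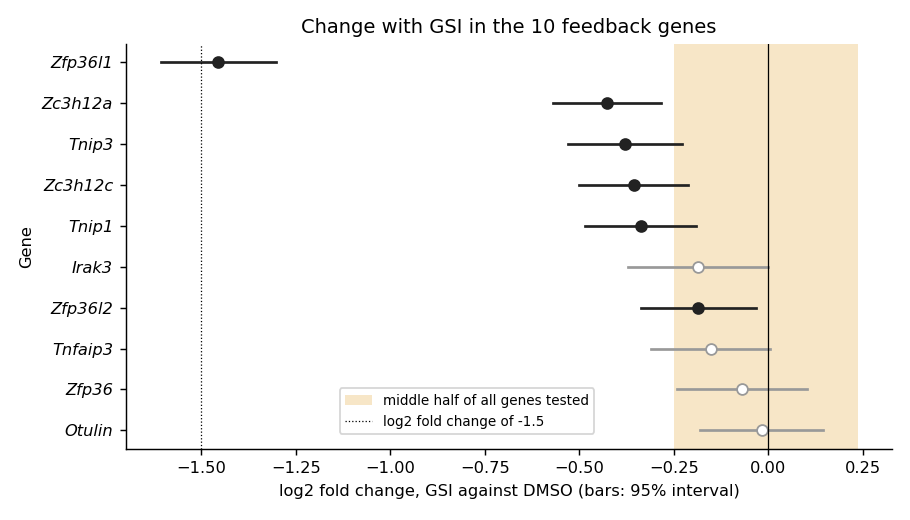
Log2 fold change of GSI against DMSO for each of the 10 genes, with bars for the 95% interval of the edgeR fit, filled points for an FDR under 0.05 and the band for the interquartile range of all genes tested (-0.25 to 0.24). All 10 points are below 0, and the interval of Zfp36l1 lies far to the left of the other 9.

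The TTP family held both the largest change of the 10 genes, in Zfp36l1, and the most abundant gene, Zfp36, whose groups overlapped. Zfp36l1 (ENSMUSG00000021127), which encodes the TTP relative also called BRF1, lies on chromosome 12 (80107754 to 80113013). It was measured at 244 and 224 CPM with DMSO against 87.0 and 83.4 CPM with GSI, from 10485 and 12691 counts against 4206 and 4118 counts. Its level was 2.74-fold lower with GSI, or -1.46 on the log2 scale (SE 0.0730, 95% interval -1.61 to -1.30, edgeR FDR = 8.01e-12), and the groups were far apart. A decrease of this size or more with an FDR under 0.05 was found for 2.26% of all genes tested. Zfp36l1 missed the study's second threshold, an absolute log2 fold change above 1.5, and reached -1.52 when DMSO replicate 2 was left out. Past both thresholds were 0 of the 10 genes in edgeR, 0 at an unadjusted p under 0.05 and 0 in DESeq2, against 2.91% of all genes tested. On the other strand, the lincRNA gene Gm26669 shares 1672 exon bases with Zfp36l1 and had 97 and 74 counts with DMSO and 6 and 9 with GSI.

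Zfp36 (ENSMUSG00000044786), the gene of TTP itself, lies on chromosome 7 (28376784 to 28380253) and was the most abundant member. It was measured at 5138 and 5655 CPM with DMSO against 5461 and 4824 CPM with GSI, so that the groups overlapped. The log2 fold change of -0.07 (95% interval -0.24 to 0.10, FDR = 0.528 from edgeR) did not pass the test. Zfp36l2 (ENSMUSG00000045817) on chromosome 17 (84183931 to 84187947) was measured at 139.8 and 156 CPM with DMSO against 131 and 129 CPM with GSI, without overlap. Its log2 fold change of -0.18 (95% interval -0.34 to -0.03) passed narrowly, with an FDR of 0.0481 from edgeR. The call of Zfp36l2 was lost without DMSO replicate 2 (-0.11, FDR = 0.431), without GSI replicate 1 (-0.20, FDR = 0.0562), without GSI replicate 2 (-0.17, FDR = 0.106) and in DESeq2 (FDR = 0.0566). Zfp36 and Zfp36l2 share 125 and 105 exon bases with genes on the other strand that were not analysed here.

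Zfp36 made up most of the family's mRNA in every library, and the family total overlapped between the groups. The summed level of the 3 genes was 1602 and 1749 CPM per kb with DMSO against 1640 and 1455 CPM per kb with GSI. Zfp36l1 made up 5.09% and 4.28% of this sum with DMSO and 1.77% and 1.92% with GSI, whereas Zfp36 made up 92.4% and 93.2% against 96.0% and 95.6%. The ratio of Zfp36 to Zfp36l1 per kb was 18.2 and 21.8 with DMSO against 54.1 and 49.8 with GSI, a 2.60-fold higher mean with GSI. The ratio of Zfp36 to Zfp36l2 was 37.4 and 36.9 against 42.3 and 38.0. The differences in these ratios were not tested.

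**Figure D3:**
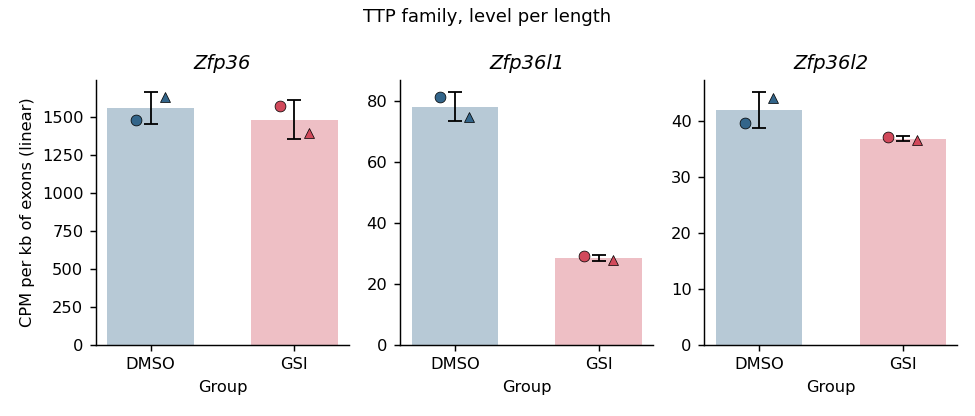
Level of the 3 TTP family genes per kilobase of exons, with bars for the mean, error bars for the SD (n = 2) and points for the libraries, each panel on its own linear axis from 0. Zfp36l1 falls from 78.2 to 28.5 CPM per kb, while Zfp36 lies between 1390 and 1630 CPM per kb with overlapping groups.

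Both Regnase genes fell. Zc3h12a (ENSMUSG00000042677), the gene of Regnase-1, lies on chromosome 4 (125118423 to 125127840) and fell from 253 and 255 CPM with DMSO to 187 and 191 CPM with GSI. The change of -0.43 on the log2 scale (SE 0.0685, edgeR FDR = 4.40e-05) was exceeded among the 10 genes by Zfp36l1 alone. Zc3h12c (ENSMUSG00000035164), the gene of Regnase-3, lies on chromosome 9 (52111344 to 52168572) and fell from 184 and 184 CPM to 139.9 and 148 CPM, a change of -0.36 on the log2 scale (SE 0.0691, edgeR FDR = 0.000327). Zc3h12c shares 117 exon bases on the other strand with Mir6244, which had 3 and 6 counts with DMSO and 0 in both GSI libraries. In both Regnase genes the difference between the groups was several times the difference between the replicates. The ratio of Zc3h12a to Zc3h12c per kb was 3.26 and 3.29 with DMSO against 3.17 and 3.07 with GSI. With any 1 library left out, the log2 fold change ranged from -0.44 to -0.41 for Zc3h12a and from -0.40 to -0.32 for Zc3h12c.

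Of the 9 other genes of these families in the table, 7 were tested, with a median log2 fold change of -0.23, and 4 fell, where 21.9% of all genes tested were called lower. Leaving out 1 library moved this number between 2 and 5. The 4 that fell were Irak4 (-0.42), the kinase that starts IRAK signaling, Fam105a (-0.36), a relative of Otulin, Zc3h12d (-0.28), the gene of Regnase-4, and Irak1 (-0.23). Tnip2, which encodes ABIN2, had a log2 fold change of -0.18 (FDR = 0.0718 from edgeR), N4bp1, an endonuclease gene related to the Regnases, had -0.10 (FDR = 0.275) and Irak2 had 0.03 (FDR = 0.729), none of which passed. Zc3h12b had 3 to 9 counts in a library and Zfp36l3 had 0 in all 4, and neither was tested. The call of Zc3h12d was lost without DMSO replicate 2 (edgeR FDR = 0.126) or GSI replicate 2 (0.0675) and that of Irak1 without DMSO replicate 2 (0.129) or GSI replicate 1 (0.0765), whereas Tnip2 passed without DMSO replicate 1 (0.0461) and with the replicate block (0.0286).

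Among 23 partners of A20 and enzymes of ubiquitin signaling, 8 fell and 3 rose, with a median log2 fold change of -0.13, beside 21.9% of all genes tested called lower and 19.0% called higher. The largest changes among those called were in Spata2 (-0.50), which links the deubiquitinase CYLD to linear ubiquitin ligases, and Ikbkb (-0.45), the gene of IKKβ. Tab1, an activator of the kinase TAK1, rose by 0.39 on the log2 scale (edgeR FDR = 0.00376), from 9.60 and 10.01 CPM to 12.1 and 13.7 CPM. Of the IKK genes, Ikbkb and Chuk (-0.19) fell while Ikbkg (0.35), the gene of the regulatory subunit NEMO, rose, and of the TAK1 complex Map3k7 (-0.25) and Tab2 (-0.19) fell, Tab1 rose and Tab3 (0.06, edgeR FDR = 0.657) did not pass. The calls of Chuk and Tab2 were narrow (edgeR FDR = 0.0486 and 0.0455), and Chuk, Ikbkg, Map3k7, Tab2 and Tab3 were chosen after their values were seen. Tax1bp1, an adaptor of A20, had a log2 fold change of 0.00 (95% interval -0.14 to 0.15). Without DMSO replicate 1, 3 genes of this list were called lower in place of 8, Spata2 and Ikbkb among them, so that at most 1 of Chuk, Map3k7 and Tab2 kept its call.

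Of 12 genes of proximal TLR4 and IL-1 receptor signaling, 7 fell and 5 did not pass, with a median log2 fold change of -0.31, beside 21.9% called lower over all genes tested. The largest changes were in Ticam1 (-0.68), the gene of the adaptor TRIF, Tirap (-0.66), the adaptor that brings MyD88 to the membrane, and Peli2 (-0.65), an E3 ligase gene. Ticam1 fell from 67.7 and 70.5 CPM to 44.5 and 41.6 CPM (FDR = 3.01e-07 from edgeR). Myd88 itself had a log2 fold change of -0.02 (FDR = 0.812 from edgeR). Cd14, which is in this list and in that of the macrophage markers, fell with a log2 fold change of -0.64.

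**Figure D4:**
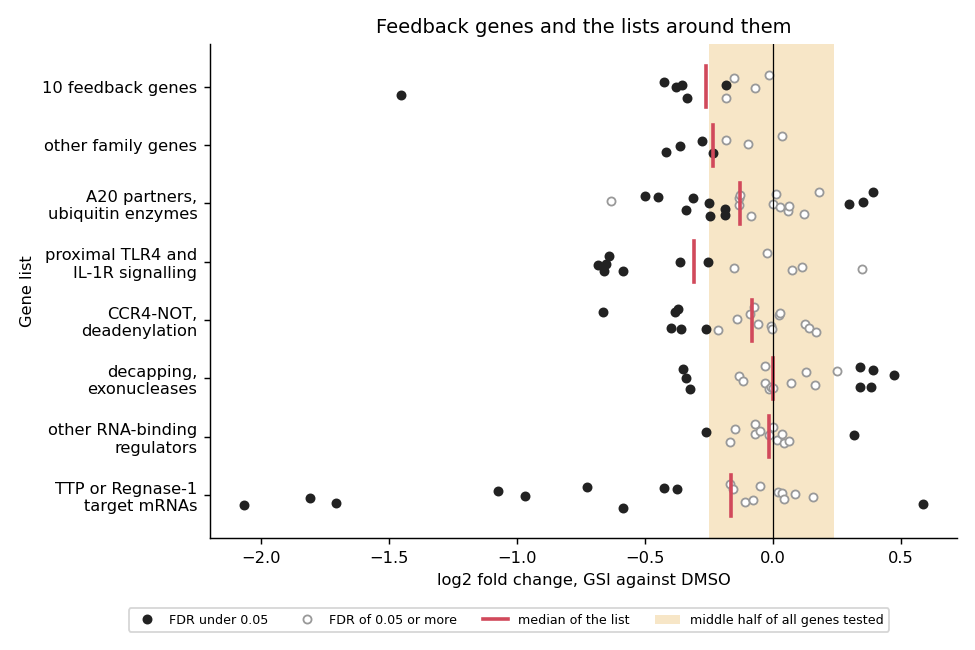
Log2 fold change of GSI against DMSO for the tested genes of each list, filled for an FDR under 0.05, with red bars for the list medians and the band for the interquartile range of all genes tested (-0.25 to 0.24). The list medians run from -0.31 for proximal receptor signaling to 0.00 for decapping and exonucleases, and the target mRNAs reach down to -2.07.

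Of 18 genes of CCR4-NOT and deadenylation, 6 fell and 12 did not pass, with a median of -0.08. Over all genes tested 21.9% were called lower, and over those averaging at least 10 CPM 25.4%. In this list, 1 gene was called higher without GSI replicate 2 and with the replicate block. The largest changes were in Tob2 (-0.67), which bridges RNA-binding proteins and the deadenylase, Cnot1 (-0.40), the scaffold of CCR4-NOT, and Cnot6l (-0.38), one of its catalytic subunits. Tob2 fell from 91.0 and 83.7 CPM to 54.4 and 55.7 CPM (FDR = 3.79e-07 from edgeR). Of 19 genes of decapping and exonucleases, 3 fell and 5 rose, with a median of 0.00, numbers near the 21.9% and 19.0% of all genes tested called lower and higher. The largest changes were the increases of Exosc4 (0.47) and Exosc5 (0.38), subunits of the exosome, and of Pnrc1 (0.39), which takes part in decapping, and that of Exosc5 was lost without GSI replicate 2 (0.27, edgeR FDR = 0.0547). The 5 calls of this list in the upward direction became 3 without DMSO replicate 2, without GSI replicate 1 and in DESeq2, and its 3 calls downward became 1 without DMSO replicate 1. Of 13 other RNA-binding regulators, 11 did not pass, while Mapk14 (-0.26), the p38 kinase upstream of the kinase that phosphorylates TTP, fell and Arid5a (0.32), which stabilizes mRNAs that Regnase-1 destroys, rose from 104 and 109 CPM to 134 and 132 CPM.

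Of 20 cytokine and feedback mRNAs known as targets of TTP or Regnase-1, 9 fell, Ier3 rose (0.59) and 10 did not pass, with a median log2 fold change of -0.16, beside 21.9% of all genes tested called lower and 19.0% called higher. The largest changes were in Csf2 (-2.07), Il10 (-1.81) and Il1b (-1.71). Csf2 rested on 57 and 29 counts with GSI, and its value ran from -2.65 without GSI replicate 1 to -1.65 without GSI replicate 2. Il10 fell more than Csf2 without GSI replicate 2 (-2.06) and without DMSO replicate 1 (-1.91 against -1.86). Il1b fell more than Il10 without DMSO replicate 2 (-1.79 against -1.70) and without GSI replicate 1 (-1.78 against -1.59). Il10 fell from 309 and 357 CPM to 79.6 and 110 CPM, a larger decrease than that of any of the 10 brakes. Tnf, with the best known TTP site, had 7315 and 7691 CPM with DMSO against 8124 and 7783 CPM with GSI, a log2 fold change of 0.08 (FDR = 0.400 from edgeR). The 9-letter AU-rich element occurred in 10 of the 20, among them Tnf with 5 copies and Csf2 with 4, and in neither Il10 nor Il1b. Several of the named pathway genes share exon bases with genes on the other strand, from 25 for Il1b to 485 for Tirap. The libraries were stranded, but the strand setting of the counting was not given in the sources used here, so the share of such reads in these values was not tested.

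The genes most like Tnfaip3 over the 4 libraries, by the root mean square distance of centred log2 CPM among 7580 genes averaging at least 10 CPM, were Heatr1 (0.00481), Mybbp1a (0.00562) and Sbno2 (0.00581). With 4 libraries scaled by the same normalization, this distance is a description and carries no test.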

How the data were processed

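RNA-seq of IFNγ-primed, LPS/IC-activated BMMs treated with DMSO or DAPT was analysed, with 2 replicates per group and 4 columns per replicate. Per the study's methods, the authors made TruSeq stranded mRNA libraries, trimmed adapters with Trimmomatic, aligned reads with STAR (2.5.0a in the submitters' processing notes) to mm10 and obtained counts with HTSeq. The deposited table holds raw counts for each gene and run, without normalization. The notes also name mm9, and the HTSeq version and strand setting are not given in the sources used here. The titles number the 4 columns of a replicate without saying what they are, and they were summed as runs of 1 library.

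Counts were tested with the quasi-likelihood functions of edgeR 4.0.16 (R 4.3.3), after filterByExpr and TMM and with group as the only factor, over 13211 genes, with Benjamini-Hochberg adjustment. The standard error is the size of the log2 fold change divided by the square root of F. CPM uses TMM-adjusted library sizes, except for the marker sums and the limit of 3 counts, which use library totals. Exon lengths, positions and untranslated regions came from GENCODE M21 on GRCm38. One sequence is not reported here. Alternatives were RLE normalization, unscaled libraries, DESeq2 1.42.0, no filter or a minimum of 10 counts per library, a block for the replicate number, the 16 columns as separate samples, and leaving out each library.

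The members, lists and tests were chosen with earlier results of these data known. Named were all 10 members, the other genes of their families, and up to 3 genes per list with the largest changes among those with an FDR under 0.05 and at least 1 CPM, the 3 genes nearest to Tnfaip3, and Hes1 and Hey1. Further genes were named after their values were seen: Myd88, Cd14, Tax1bp1, Chuk, Ikbkg, Map3k7, Tab2, Tab3, Tnf and Ier3. The symbol of Tax1bp1 was corrected in its list after the counts were seen. The study applied an FDR of 0.05 and a log2 fold change of 1.5.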

Additional observations from a re-analysis of the deposited data

How the results depend on the processing

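Of the 110 values of the 10 brakes under the alternatives, 100 kept their direction and their side of an FDR of 0.05. The number of brakes called was 5 to 8 over all alternatives and 5 to 6 when 1 library was left out, where the group left with 1 library is assumed to vary like the other. Past both thresholds, leaving out 1 library gave 0 to 1. Over all genes, 4033 (DESeq2) to 7582 (16 columns as separate samples) were called against 5392, and 4162 to 4978 when 1 library was left out. With the 16 columns as separate samples, 74 genes of the surrounding lists were called against 48 (39 to 46 when 1 library was left out), and Tnfaip3 (-0.15) and Irak3 (-0.18) passed. The labels do not define these columns as replicates. The calls of this setting, which gave the highest number of brakes (8), rest in part on the spread between columns of 1 library. They therefore do not measure the spread between replicates. With no filter, Zfp36l2 did not pass (-0.18), and in DESeq2 neither (-0.19). When 1 library was left out, the log2 fold change ranged from -0.090 to 0.052 for Otulin (above 0 without DMSO replicate 1), from -0.16 to 0.018 for Zfp36 (above 0 without GSI replicate 2), from -0.26 to -0.11 for Zfp36l2, from -0.20 to -0.10 for Tnfaip3, from -0.27 to -0.10 for Irak3, from -0.38 to -0.30 for Tnip1, from -0.41 to -0.36 for Tnip3 and from -1.52 to -1.39 for Zfp36l1. Outside the 10, Irak2 changed sign without DMSO replicate 1, within a range from -0.011 to 0.077, and of 264 values of 24 named genes 254 kept direction and call. The cause of these shifts was not tested.

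The replicate number as a block called 6444 genes and 7 of the brakes, with Irak3 (-0.19) added and no other call of a brake changed. The replicate differences of the 2 groups correlated with r = 0.155 over 13211 genes, a single value. The labels do not say whether samples with the same replicate number share a source, so that is not known.

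Without length scaling, the ratio of counts was 23.2 with DMSO and 60.3 with GSI for Zfp36 to Zfp36l1, 36.5 with DMSO for Zfp36 to Zfp36l2, 1.38 and 1.31 for Zc3h12a to Zc3h12c, and 0.360 and 0.371 for Tnip1 to Tnip3. Length scaling multiplies each ratio by a constant, so the change between the groups is the same. It does turn the order of Tnip1 and Tnip3, whose mean ratio per kb was 1.11 with DMSO and 1.14 with GSI. Each SD here comes from the difference of 1 pair of libraries, and at 811 to 1018 counts Irak3 had the widest interval among the 10.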
